A study of Homo sapiens with 7 samples.

Results

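The genes described here are 10 imprinted growth regulators, IGF2, H19, DLK1, MEG3, PEG3, PEG10, CDKN1C, MEST, PLAGL1 and SNRPN, read by symbol from a table of 23262 genes with values, in which all 10 are present. They were chosen by name with earlier results of these same libraries known, so their levels are a description. The 7 libraries come from a human embryonic stem cell line (H3 in the labels) with 2 fluorescent reporters, eGFP for NKX2-5, which encodes a transcription factor of the early heart, and mCherry for alpha-MHC, the heart myosin encoded by MYH6. All groups share this line and both reporters. The cells were differentiated toward heart muscle and sorted 2 times by flow cytometry.

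The groups are undifferentiated cells of day 0 (hESC) and 6 sorted fractions. On day 3 they are CD13+/ROR2+ cells, labelled mesoderm progenitor, and CD13-/ROR2- cells, labelled endoderm progenitor. On day 7 they are CD13+/ROR2+/NKX2-5+ cells, labelled cardiac progenitor, and CD13+/ROR2+/NKX2-5- cells, whose type is labelled unknown. On day 14 they are CD13+/ROR2+/NKX2-5+/aMHC+ cells, labelled cardiomyocytes, and CD13+/ROR2+/NKX2-5+/aMHC- cells, again of unknown type. They are called day 3 CD13+/ROR2+, day 3 CD13-/ROR2-, day 7 NKX2-5+, day 7 NKX2-5-, day 14 aMHC+ and day 14 aMHC- from here on. For the later fractions, the labels leave unsaid on which day CD13 and ROR2 were gated. Each group is 1 library, so no difference below has a replicate check, and none has a p-value or a standard deviation.

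An imprinted gene is read mainly from the copy inherited from 1 parent, because DNA methylation laid down in the egg or the sperm marks the copies differently. Imprinted genes often lie in clusters in which a protein gene of the paternal copy stands beside a noncoding RNA of the maternal copy, as IGF2 beside H19 and DLK1 beside MEG3. Many of them act on growth of the fetus and placenta. Their RNA level in a bulk library does not tell from which copy it was read, and imprinting itself was not measured here.

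RefSeq's promoter table (build GRCh38.p14) held 18 windows for 5 of the members, PLAGL1, MEST, H19, MEG3 and SNRPN. The 250 bases before 1 start of each are printed to set the control regions of the protein genes PLAGL1, MEST and SNRPN beside those of the noncoding genes that stayed low or at 0 (H19, MEG3). For each gene this is the window with the most CpG dinucleotides, the first one where windows tied. Capitals mark TGCCGC or its reverse complement GCGGCA, the letters that the zinc finger protein ZFP57 is known to bind when methylated at imprinted regions. Both strands were searched, and the forms can overlap each other. Either form is in 12.7% of all 35116 windows of this length in the table and in 7 of the 18 member windows. Windows of a gene can overlap, and those of MEG3 all hold the same copy of the motif. The 7 are therefore not separate, and no excess can be read from them. The 5 printed were picked for CpG, which the motif itself contains, so their matches cannot be set against that share.
PLAGL1: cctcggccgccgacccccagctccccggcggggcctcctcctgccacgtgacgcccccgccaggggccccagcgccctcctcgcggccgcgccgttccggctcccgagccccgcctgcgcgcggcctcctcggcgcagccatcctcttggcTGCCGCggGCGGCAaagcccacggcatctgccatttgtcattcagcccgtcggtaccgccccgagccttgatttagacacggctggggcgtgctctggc
MEST: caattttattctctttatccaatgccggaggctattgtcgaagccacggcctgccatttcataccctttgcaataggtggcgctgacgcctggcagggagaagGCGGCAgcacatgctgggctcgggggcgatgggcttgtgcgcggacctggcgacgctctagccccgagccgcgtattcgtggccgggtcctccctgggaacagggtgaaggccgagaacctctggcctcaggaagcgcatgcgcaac
SNRPN: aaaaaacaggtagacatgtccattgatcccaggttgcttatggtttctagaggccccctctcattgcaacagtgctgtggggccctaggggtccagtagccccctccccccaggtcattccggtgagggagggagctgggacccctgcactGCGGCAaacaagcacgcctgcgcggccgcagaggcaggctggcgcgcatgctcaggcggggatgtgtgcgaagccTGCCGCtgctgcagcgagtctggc
H19: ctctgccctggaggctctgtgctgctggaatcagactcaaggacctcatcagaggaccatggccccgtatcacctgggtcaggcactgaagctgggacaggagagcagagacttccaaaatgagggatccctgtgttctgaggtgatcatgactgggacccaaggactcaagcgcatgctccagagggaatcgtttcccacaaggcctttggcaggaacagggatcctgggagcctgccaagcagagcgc
MEG3: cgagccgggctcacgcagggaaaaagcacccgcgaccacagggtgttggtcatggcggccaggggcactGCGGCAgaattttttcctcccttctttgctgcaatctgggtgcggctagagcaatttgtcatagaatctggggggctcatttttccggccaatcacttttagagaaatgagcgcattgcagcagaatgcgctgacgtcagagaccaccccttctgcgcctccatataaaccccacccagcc

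The PLAGL1 window (chr6:144008260-144008509, minus strand, chromosome 6) holds 32 CpG and 2 matches. That of MEST (chr7:130486097-130486346, plus strand, chromosome 7) holds 20 CpG and 1 match, and that of SNRPN (chr15:24954737-24954986, plus strand, chromosome 15) 12 CpG and 2 matches. Another MEST window (chr7:130491835-130492084, plus strand), not printed, tied at 20 CpG and holds 0 matches. The H19 window (chr11:2001267-2001516, minus strand, chromosome 11) holds 4 CpG and 0 matches, and the MEG3 window (chr14:100825858-100826107, plus strand, chromosome 14) 13 CpG and 1 match. The median over all windows is 11 CpG. These are counts of letters only. They say nothing of methylation or of binding in these cells.

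Expression is given in FPKM, fragments scaled to transcript length and to the mapped fragments of the library, so levels can be set beside each other between genes. A member is called higher or lower when its log2 ratio, taken after adding 1 FPKM to both values, is at least 2 in size (4-fold) and the higher value is 5 FPKM or more. Folds are given without the added 1 FPKM. Relative to hESC, depth read from the steps between low values was 0.605 in day 7 NKX2-5+, the shallowest, and 1.30 to 3.08 in the others, apart from day 7 NKX2-5-, whose depth could not be read this way. How many reads lie behind a value is not known. The day 7 NKX2-5+ library also reads low as a whole. Median-ratio scaling moves its log2 ratios by 0.43 against day 7 NKX2-5-, by 0.69 against day 3 CD13+/ROR2+ and, where day 14 aMHC+ is set over it, by -0.61. The other 5 comparisons move by between -0.08 and 0.26.

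Of the labels, the day 3 CD13-/ROR2- fraction held 6 of 6 pluripotency markers at 5 FPKM or more, with a sum of 702 FPKM against 686 in hESC, while the day 3 CD13+/ROR2+ fraction had 273. Of those 273 FPKM, 171 was TDGF1, which was at 145 in hESC. By the 4-fold rule 4 of the 6 (POU5F1, NANOG, SOX2 and DPPA4) were lower there than in hESC. The share called lower over 5871 genes was 2.54%. POU5F1 was at 11.2 against 154 FPKM, NANOG at 0.660 against 36.5 and SOX2 at 0.295 against 26.3. The 7 heart muscle markers summed to 5248 FPKM in day 14 aMHC+, 1798 in day 14 aMHC-, 2805 in day 7 NKX2-5+ and 600 in day 7 NKX2-5-, and to between 1.42 and 12.4 in the other 3 libraries. Both fractions of unlabelled type thus held heart muscle transcripts. In bulk libraries, fewer cells of a type and less RNA per cell cannot be told apart.

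IGF2, an insulin-like growth factor of fetal tissues, covered the widest range of the 10. It stood at 0.282 FPKM in hESC, 14.0 in day 3 CD13+/ROR2+, 0.868 in day 3 CD13-/ROR2-, 26.1 in day 7 NKX2-5+, 634 in day 7 NKX2-5-, 254 in day 14 aMHC+ and 335 in day 14 aMHC-. The highest library exceeded the lowest 2247-fold. In day 7 NKX2-5- it was the gene of rank 16 among 21571 genes other than small RNA and histone genes, against rank 13500 in hESC. Ordered by level, 2 steps between neighbouring libraries passed the 4-fold rule. They are day 14 aMHC+ over day 7 NKX2-5+ (9.75-fold) and day 3 CD13+/ROR2+ over day 3 CD13-/ROR2- (16.1-fold), while the others lay between 1.32-fold and 3.08-fold.

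H19, the maternally read noncoding RNA beside IGF2, did not follow it to a high level. It stood at 0.0616 FPKM in hESC, 0.0909 in day 3 CD13+/ROR2+, 1.26 in day 7 NKX2-5-, 0.324 in day 14 aMHC+ and 0.152 in day 14 aMHC-, and was listed at 0 in day 3 CD13-/ROR2- and day 7 NKX2-5+. Its highest library was the same as that of IGF2, but no library reached 5 FPKM and none of its differences could be called. IGF2-AS1, an antisense transcript of the IGF2 locus, was at 0.675 FPKM in day 7 NKX2-5-, 1.87 in day 14 aMHC+ and 2.12 in day 14 aMHC-, and below 0.1 in the other 4 libraries. The kit does not mark strand, so reads of IGF2 and of this antisense row cannot be told apart where they overlap. The read-through row INS-IGF2 had 5.44, 2.40 and 5.30 FPKM in the same 3 libraries and at most 4.66e-05 elsewhere. Adding it to IGF2 moved no call of IGF2.

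DLK1, a membrane protein with epidermal growth factor repeats that is related to Notch ligands and marks many fetal progenitors, had the second widest range. Its levels were 0.401 FPKM in hESC, 1.37 in day 3 CD13+/ROR2+, 1.00 in day 3 CD13-/ROR2-, 7.35 in day 7 NKX2-5+, 134 in day 7 NKX2-5-, 41.2 in day 14 aMHC+ and 44.6 in day 14 aMHC-. The order of the 4 later libraries was that of IGF2. MEG3, the maternally read noncoding RNA beside it, was at 0.0527 FPKM in day 3 CD13-/ROR2- and listed at 0 in the other 6 libraries, including those with the highest DLK1. A value of exactly 0 in this kind of table can be a failed estimate. Neighbouring rows of the cluster were low as well. MEG8, another noncoding RNA there, was at 0.298 FPKM in day 7 NKX2-5- and at 0 elsewhere, and the retrotransposon-derived gene RTL1 had its highest value, 0.493 FPKM, in day 3 CD13+/ROR2+. DIO3, which encodes a thyroid hormone deiodinase at the far end of the cluster, was highest in the same library at 4.03 FPKM and lay between 0 and 0.710 elsewhere.

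**Figure D1:**
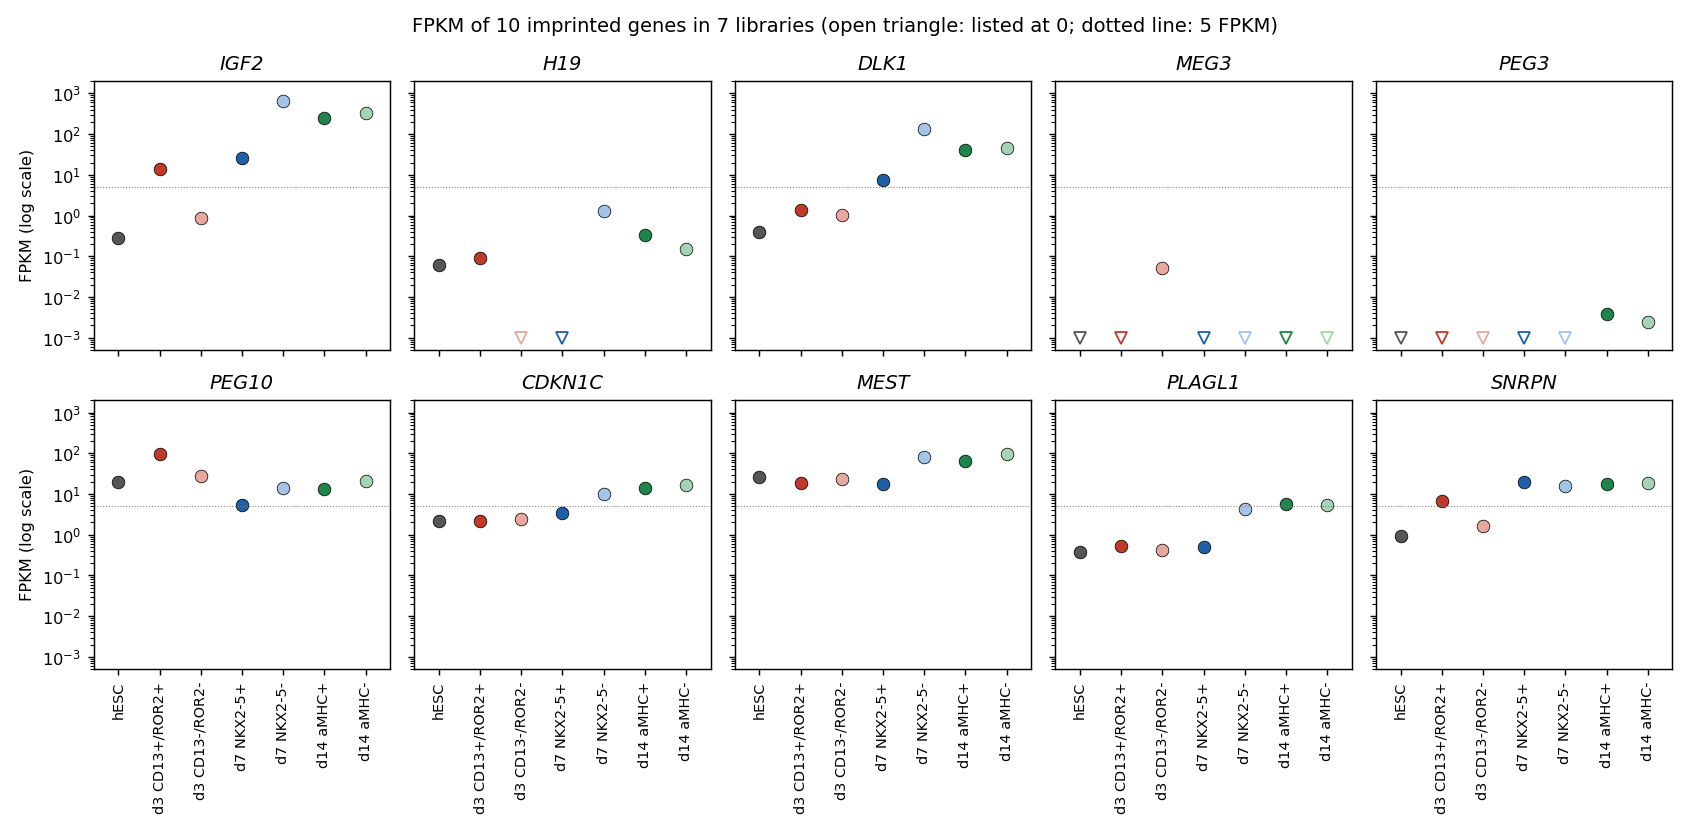
Each panel plots 1 gene, with FPKM on a log axis and the 7 libraries in order of day, 1 point per library; open triangles mark libraries listed at 0 and the dotted line 5 FPKM. IGF2 and DLK1 peak in day 7 NKX2-5- at 634 and 134 FPKM, PEG10 peaks in day 3 CD13+/ROR2+ at 95.2, and H19, MEG3 and PEG3 stay below 2 FPKM throughout.

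MEST, a paternally read gene for a protein of the hydrolase fold, was expressed in every library. It stood at 26.3 FPKM in hESC, 18.8 in day 3 CD13+/ROR2+, 23.7 in day 3 CD13-/ROR2-, 17.7 in day 7 NKX2-5+, 81.7 in day 7 NKX2-5-, 63.7 in day 14 aMHC+ and 96.5 in day 14 aMHC-. Ordered by level, the 4 lower libraries lay within 17.7 to 26.3 FPKM and the 3 higher ones within 63.7 to 96.5. These sets were formed from the MEST values themselves. The step between them, day 14 aMHC+ over hESC, was 2.42-fold and did not pass the 4-fold rule. COPG2, which overlaps the MEST locus from the other strand, was highest in hESC and lay between 3.19 and 6.70 FPKM. The antisense row MESTIT1 stayed between 0.270 and 0.819 FPKM.

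PLAGL1 is a paternally read zinc finger transcription factor that in the mouse acts on a network of other imprinted genes. Its highest values were in the same 3 libraries as those of MEST, at a lower level. It had 0.384 FPKM in hESC, 0.538 in day 3 CD13+/ROR2+, 0.432 in day 3 CD13-/ROR2-, 0.498 in day 7 NKX2-5+, 4.34 in day 7 NKX2-5-, 5.61 in day 14 aMHC+ and 5.27 in day 14 aMHC-. HYMAI, the noncoding RNA that overlaps it, did not exceed 0.193 FPKM. CDKN1C, the maternally read inhibitor of cyclin-dependent kinases also called p57, stood at 2.17 FPKM in hESC, 2.22 in day 3 CD13+/ROR2+, 2.42 in day 3 CD13-/ROR2-, 3.46 in day 7 NKX2-5+, 9.87 in day 7 NKX2-5-, 13.8 in day 14 aMHC+ and 16.9 in day 14 aMHC-. On the deposited values of MEST, PLAGL1 and CDKN1C alike, day 7 NKX2-5- thus lay with the day 14 libraries, and day 7 NKX2-5+ near those of day 0 and day 3. After median-ratio scaling, CDKN1C in day 7 NKX2-5+ lay between, with log2 ratios of 1.00 over day 3 CD13+/ROR2+ and -0.95 over day 7 NKX2-5-.

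PEG10, a paternally read gene derived from a retrotransposon and needed for the placenta in the mouse, had another pattern. It stood at 20.1 FPKM in hESC, 95.2 in day 3 CD13+/ROR2+, 27.9 in day 3 CD13-/ROR2-, 5.32 in day 7 NKX2-5+, 14.0 in day 7 NKX2-5-, 13.3 in day 14 aMHC+ and 21.0 in day 14 aMHC-. Its peak was in the sorted mesoderm, and the fraction of cardiac progenitors was lowest. SGCE, the sarcoglycan gene that is read away from PEG10 from an adjoining start, was also highest in day 3 CD13+/ROR2+ and lowest in day 7 NKX2-5+, over a narrower range (9.18 and 3.57 FPKM). Its values in day 3 CD13-/ROR2- (4.43 FPKM) and day 14 aMHC+ (4.42) were close to that lowest one. As day 7 NKX2-5+ reads low as a whole, the lowest place of SGCE need not hold after scaling. PEG3, a paternally read zinc finger gene, was at 0.00386 FPKM in day 14 aMHC+ and 0.00250 in day 14 aMHC-, and listed at 0 in the other 5 libraries. ZIM2, which shares its start with PEG3, was at 0 in all 7.

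SNRPN, which encodes a protein of the spliceosome and lies in the Prader-Willi region, cannot be read from its own row alone. It stood at 0.936 FPKM in hESC, 6.80 in day 3 CD13+/ROR2+, 1.62 in day 3 CD13-/ROR2-, 20.0 in day 7 NKX2-5+, 15.6 in day 7 NKX2-5-, 18.0 in day 14 aMHC+ and 18.9 in day 14 aMHC-. SNURF, whose reading frame lies upstream of SNRPN in shared transcripts, has a row of its own, which stood at 178, 67.8, 119, 5.64, 15.5, 49.6 and 59.6 FPKM in the same order of libraries. The SNRPN row was 0.522% of the sum of both rows in hESC and 78.0% in day 7 NKX2-5+. The sum was 179 FPKM in hESC, 74.6 in day 3 CD13+/ROR2+, 121 in day 3 CD13-/ROR2-, 25.6 in day 7 NKX2-5+, 31.1 in day 7 NKX2-5-, 67.7 in day 14 aMHC+ and 78.5 in day 14 aMHC-. By its own row SNRPN was lowest in hESC, whereas the sum was highest there. On unscaled values, the log2 ratio changed sign in 7 of 8 comparisons when the sum was used. How reads were divided between the rows by the authors' software is not known here.

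**Figure D2:**
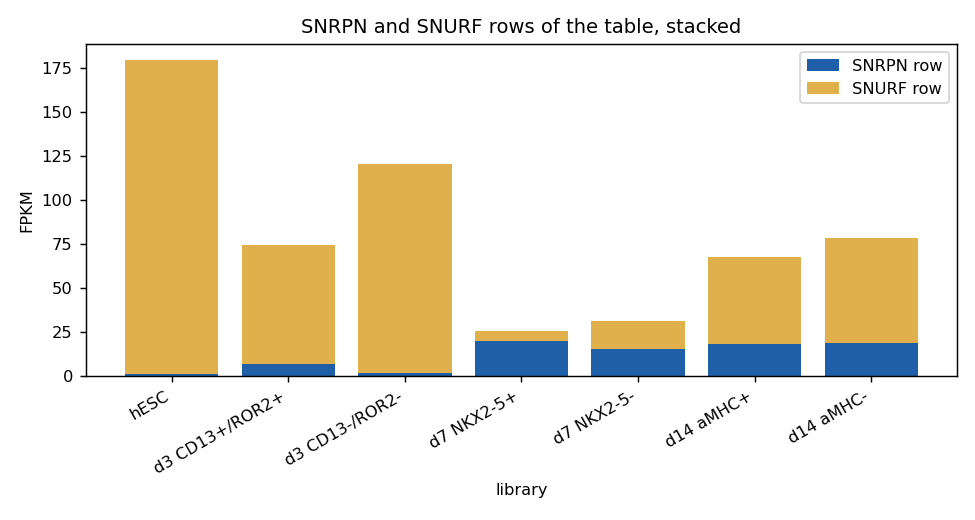
Bars show FPKM in the 7 libraries in order of day, from 0, with the SNRPN row below and the SNURF row stacked on it. The SNRPN part is largest in day 7 NKX2-5+ at 20.0 FPKM, while the whole bar is highest in hESC at 179 and lowest in day 7 NKX2-5+ at 25.6. The values are unscaled, and day 7 NKX2-5+ reads low as a whole.

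On day 3, where the sort separates CD13+/ROR2+ from CD13-/ROR2- cells, IGF2 was the 1 member called, with 14.0 FPKM in the double-positive and 0.868 in the double-negative cells (16.1-fold, log2 ratio 3.00), a call that was lost with a pseudocount of 5 FPKM (1.69). Of the 10 members, 1 was called higher and 0 lower, and 4 reached 5 FPKM. By the same rule 6.23% of 5875 genes were called, 3.69% higher and 2.54% lower. PEG10 (95.2 against 27.9 FPKM, 3.41-fold) was not called. Nor was the SNRPN row (6.80 against 1.62 FPKM, log2 ratio 1.58), whose sum with SNURF had a log2 ratio of -0.69, and DLK1, CDKN1C, MEST and PLAGL1 differed by less than 1.4-fold. All 10 members, those at or near 0 included, had a median log2 ratio of 0.11, beside 0.03 over the genes that reach 5 FPKM. Here and below these medians cover unlike sets, since the members need not reach 5 FPKM.

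Set over hESC, the day 3 CD13+/ROR2+ library had IGF2 called higher (14.0 against 0.282 FPKM, 49.5-fold) and PEG10 called higher (95.2 against 20.1, 4.74-fold). With a pseudocount of 5 FPKM none of the members called here was called. The SNRPN row was called higher too (6.80 against 0.936 FPKM, log2 ratio 2.01), but the sum with SNURF ran the other way (74.6 against 179 FPKM, log2 ratio -1.26). That makes 3 of 10 members higher and 0 lower, beside 7.03% of 5871 genes called, 4.5% higher and 2.54% lower. In day 3 CD13-/ROR2- over hESC, 0 of 10 members were called in either direction, beside 2.63% of 5705 genes called, 1.45% higher and 1.17% lower. The largest ratio there was that of IGF2 at 0.54, on 0.868 and 0.282 FPKM. These 2 comparisons share the hESC library.

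On day 7, where the reporter separates NKX2-5+ from NKX2-5- cells, 3 of 10 members were called lower in NKX2-5+ and 0 higher, beside 7.45% of 4981 genes called, 5.42% lower and 2.03% higher. IGF2 stood at 26.1 FPKM in NKX2-5+ and 634 in NKX2-5- (24.3-fold lower, log2 ratio -4.55). DLK1 stood at 7.35 FPKM in NKX2-5+ and 134 in NKX2-5- (18.3-fold lower, log2 ratio -4.02). MEST had 17.7 FPKM in NKX2-5+ and 81.7 in NKX2-5- (4.63-fold lower, log2 ratio -2.15), a call that was lost after median-ratio scaling (-1.74). IGF2 and DLK1 were called after that scaling as well.

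Below the rule on day 7, PLAGL1 was at 0.498 FPKM in NKX2-5+ and 4.34 in NKX2-5-, CDKN1C at 3.46 and 9.87, and PEG10 at 5.32 and 14.0 in the same order. Only the SNRPN row had a positive ratio (0.33), and its sum with SNURF a negative one (-0.27). The latter is smaller in size than the 0.43 by which median-ratio scaling moves this comparison, so its sign need not hold after scaling. The median of all 10 members was -1.27, beside -0.47 over the 4981 genes that reach 5 FPKM, as 6 members did. The direction of IGF2 between a reporter- or marker-positive fraction and its negative counterpart was thus opposite on day 3 and day 7, in sorts made on different markers. That difference was not tested.

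**Figure D3:**
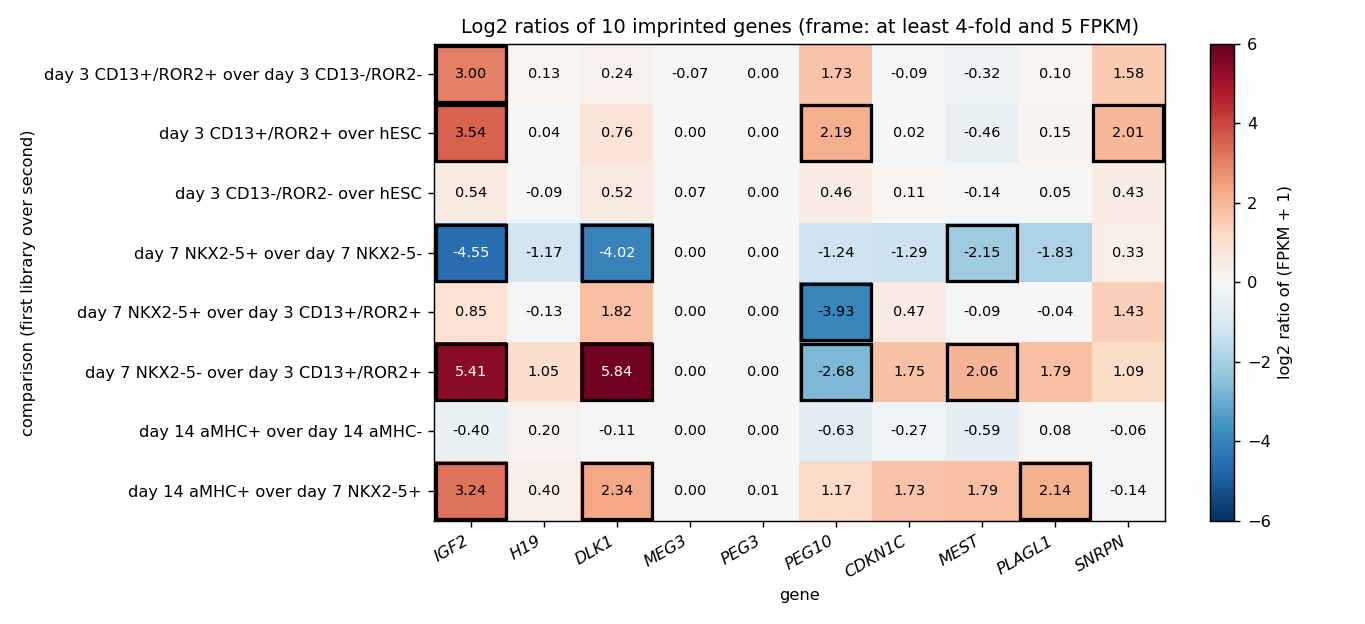
Rows are 8 comparisons, the first named library over the second, columns are the 10 genes, and each cell gives the log2 ratio of (FPKM + 1), red for higher and blue for lower in the first library; frames mark those of at least 4-fold with 5 FPKM in the higher library. IGF2 is framed in 5 rows, with 3.00 in day 3 CD13+/ROR2+ over CD13-/ROR2- and -4.55 in day 7 NKX2-5+ over NKX2-5-, and no cell is framed in the day 14 row.

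Both day 7 fractions were also set over day 3 CD13+/ROR2+, the earlier fraction with the same surface markers, so these 2 comparisons share that library. In day 7 NKX2-5- over day 3 CD13+/ROR2+, 3 of 10 members were higher and 1 lower, beside 9.04% of 5939 genes called, 5.35% higher and 3.69% lower. DLK1 was at 134 against 1.37 FPKM (98.3-fold), IGF2 at 634 against 14.0 (45.4-fold) and MEST at 81.7 against 18.8 (4.34-fold), while PEG10 was at 14.0 against 95.2 (log2 ratio -2.68). PLAGL1 (4.34 against 0.538 FPKM, log2 ratio 1.79) and CDKN1C (9.87 against 2.22, log2 ratio 1.75) were not called.

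In day 7 NKX2-5+ over day 3 CD13+/ROR2+, 0 of 10 members were called higher and 1 lower, beside 13.5% of 5633 genes called, 4.38% higher and 9.09% lower. The member called lower was PEG10, at 5.32 against 95.2 FPKM (17.9-fold lower, log2 ratio -3.93). DLK1 was at 7.35 against 1.37 FPKM (log2 ratio 1.82) and passed the rule after median-ratio scaling (2.39). IGF2 was at 26.1 against 14.0 FPKM (1.87-fold) and MEST at 17.7 against 18.8. The SNRPN row was at 20.0 against 6.80 FPKM, not called, and was called after scaling (2.07), but its sum with SNURF was 25.6 against 74.6 FPKM (log2 ratio -1.51).

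On day 14, 0 of 10 members were called between the aMHC+ and aMHC- fractions, beside 0.998% of 5712 genes called, 0.648% higher and 0.35% lower. Of the 7 members that reached 5 FPKM, the widest difference was that of PEG10, at 13.3 FPKM in aMHC+ and 21.0 in aMHC- (log2 ratio -0.63). IGF2 stood at 254 and 335 FPKM and MEST at 63.7 and 96.5 in the same order. With 1 library each, differences of this size cannot be told from the spread between samples.

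In day 14 aMHC+ over day 7 NKX2-5+, 3 of 10 members were called higher and 0 lower, beside 8.51% of 5310 genes called, 7.68% higher and 0.829% lower. IGF2 stood at 254 against 26.1 FPKM (9.75-fold, log2 ratio 3.24), a call kept after median-ratio scaling. DLK1 (41.2 against 7.35 FPKM, log2 ratio 2.34) and PLAGL1 (5.61 against 0.498 FPKM, log2 ratio 2.14) were called on the deposited values but not after that scaling, at 1.78 and 1.88. CDKN1C at 13.8 against 3.46 FPKM (3.99-fold) and MEST at 63.7 against 17.7 (3.61-fold) were not called. The median of all 10 members was 1.45, beside 0.73 over the 5310 genes that reach 5 FPKM, as 7 members did.

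Markers of other cell types are given beside these genes. The 8 fibroblast and matrix markers summed to 64.4 FPKM in day 7 NKX2-5+ and 792 in day 7 NKX2-5-, and to 375 in day 14 aMHC+ and 757 in day 14 aMHC-, with 5 of 8 at 1 FPKM or more in day 7 NKX2-5+ and 8 of 8 in the other 3 of these libraries. They summed to between 10.9 and 54.0 FPKM on days 0 and 3. Most of the day 14 sums was COL1A1 (130 FPKM in aMHC+ and 256 in aMHC-) and COL3A1 (188 and 409). DCN, LUM and PDGFRB were at 28.8, 93.7 and 24.3 FPKM in day 7 NKX2-5-. They were lower on day 14, at 1.97, 5.51 and 3.65 in aMHC+ and 1.44, 7.10 and 6.59 in aMHC-. POSTN was higher on day 14 (16.9 and 38.3 FPKM) than in day 7 NKX2-5- (2.80), and COL3A1 was higher in aMHC- than there (224). The 8 liver and yolk sac markers summed to 67.5 FPKM in day 7 NKX2-5+ and 385 in day 7 NKX2-5-, with 6 and 7 of 8 at 1 FPKM or more. On day 14 they summed to 4.98 FPKM in aMHC+ and 3.30 in aMHC-, where IGF2 was at 254 and 335 FPKM. Alpha-fetoprotein (AFP), the defining plasma protein of yolk sac and fetal liver, was at 0.199 and 0.119 FPKM there, and APOC3 and TTR were listed at 0 in both. APOA1, an apolipoprotein, was at 4.30 FPKM in day 14 aMHC+ and 1.64 in day 14 aMHC-, and at 3.91 in day 7 NKX2-5+ and 29.1 in day 7 NKX2-5-.

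Epicardial markers summed to 1.77 FPKM in day 7 NKX2-5+ and 36.3 in day 7 NKX2-5-, with 0 and 4 of 6 at 1 FPKM or more, and to 5.10 and 5.41 in the day 14 aMHC+ and aMHC- libraries. Endothelial markers summed to 10.4 FPKM in day 7 NKX2-5+ and 46.2 in day 7 NKX2-5-, with 4 and 6 of 6 at 1 FPKM or more, and to 9.47 and 8.98 on day 14. They summed to 22.4 FPKM in hESC, 12.9 in day 3 CD13+/ROR2+ and 39.2 in day 3 CD13-/ROR2-, so the order of the sums was not that of IGF2. Most of these 3 sums was KDR and FLT1, at 13.3 and 8.94 FPKM in hESC, and both were highest in day 3 CD13-/ROR2-. CDH5 (6.17 FPKM), PLVAP (15.6), TEK (3.82) and PECAM1 (1.10) were each highest in day 7 NKX2-5-, as IGF2 was. Blood markers stayed at or below 7.82 FPKM in sum in all libraries, and HBG1 and HBA1 were at 0 in all 7. The part of matrix, liver or yolk sac, epicardial and endothelial cells in the levels of IGF2, DLK1, MEST and PLAGL1 was not tested.

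**Figure D4:**
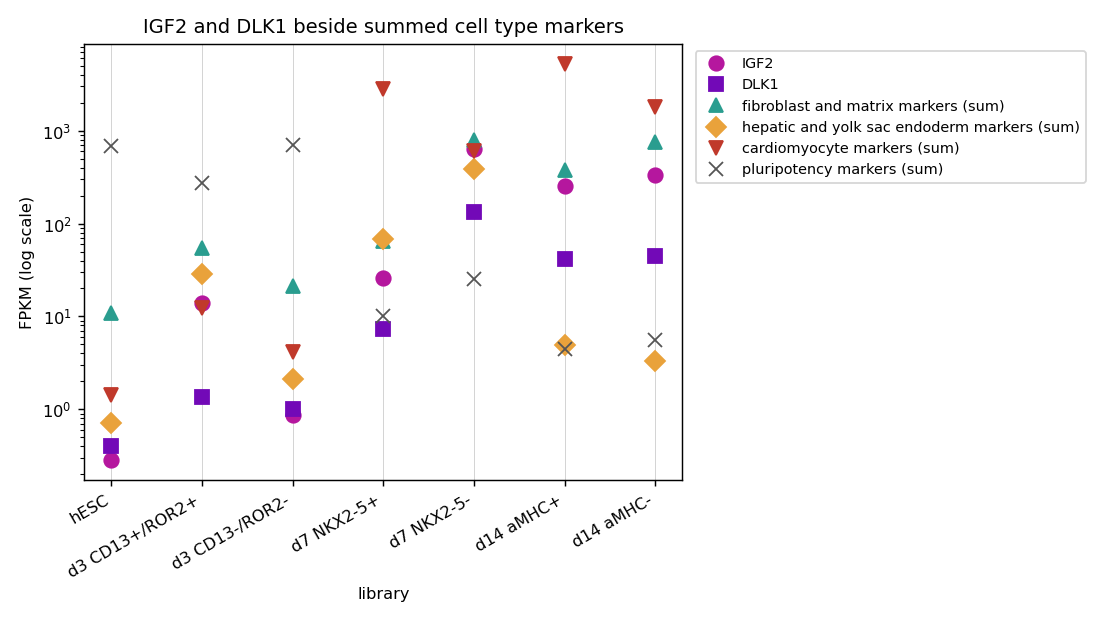
FPKM on a log axis for IGF2, DLK1 and 4 summed marker lists in the 7 libraries in order of day, 1 symbol per library. IGF2 reaches 634 FPKM in day 7 NKX2-5-, where matrix markers sum to 792 and liver and yolk sac markers to 385, and stands at 254 and 335 on day 14, where liver and yolk sac markers sum to 4.98 and 3.30.

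Few genes around IGF2 were examined. Of 9 genes for its receptors, the proteins that bind its messenger RNA and its known transcriptional activators, 0 were called in any of the 8 comparisons. In each, 6 of the 9 reached 5 FPKM, beside 0.998% to 13.5% of all genes called, so 0 calls do not set them apart. IGF1R, the receptor that signals, lay between 4.51 FPKM in day 7 NKX2-5+ and 14.3 in day 3 CD13+/ROR2+. IGF2R, which clears IGF2 and is itself imprinted in the mouse, lay between 7.71 and 15.1 FPKM. The messenger RNA binding proteins IGF2BP1, IGF2BP2 and IGF2BP3 were at 9.17 FPKM or more in every library, with the lowest value of each in day 7 NKX2-5+. These values are unscaled, and that library reads low as a whole (median-ratio factor 0.687, against 0.926 to 1.22 in the others). The place of day 7 NKX2-5+ as lowest need not hold after scaling. IGF1, the related growth factor, did not exceed 0.138 FPKM, so IGF2 was the more abundant of the pair in each of the 7 libraries.

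Of 6 other CDK inhibitors, some were high late like CDKN1C and others were not. In day 14 aMHC+ over day 7 NKX2-5+, 2 of the 6 were called higher, beside 7.68% of 5310 genes. CDKN1A, which encodes p21, stood at 155 FPKM in day 14 aMHC+ and 11.4 in day 7 NKX2-5+ and was called higher, as was CDKN2D, at 7.46 against 0.604 FPKM. CDKN1B, which encodes p27, stayed between 5.79 and 9.67 FPKM in all libraries. Over the same libraries the 8 proliferation markers summed to 168 FPKM in hESC, 148 in day 3 CD13+/ROR2+, 199 in day 3 CD13-/ROR2-, 45.3 in day 7 NKX2-5+, 68.8 in day 7 NKX2-5-, 14.5 in day 14 aMHC+ and 23.5 in day 14 aMHC-. On day 7, both CDKN1C and the proliferation sum were higher in NKX2-5- than in NKX2-5+.

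Few other imprinted genes passed the rule. Of 42 further genes listed as imprinted in human or mouse, 17 reached 5 FPKM in at least 1 library, 11 stayed under 1 FPKM in all, and 3 of those were at 0 throughout. In each of the 8 comparisons at most 2 of the 42 were called, and these were INS-IGF2 and SNURF, the rows that overlap IGF2 and SNRPN. Between 10 and 15 of the 42 reached 5 FPKM in a comparison. Over all genes that reach it, 0.998% to 13.5% were called, so these few calls do not set imprinted genes apart. NDN, which encodes necdin and lies in the same region as SNRPN, was at 6.01 FPKM in hESC, 7.96 in day 3 CD13+/ROR2+, 8.23 in day 3 CD13-/ROR2-, 10.7 in day 7 NKX2-5+, 12.9 in day 7 NKX2-5-, 26.6 in day 14 aMHC+ and 29.4 in day 14 aMHC-. GNAS, which encodes a G protein subunit, was the most abundant, between 317 FPKM in hESC and 1164 in day 14 aMHC-. INPP5F was highest in day 3 CD13-/ROR2- at 84.9 FPKM and lowest in day 7 NKX2-5+ at 10.8. The latter library reads low as a whole, so that lowest place need not hold after scaling.

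**Figure D5:**
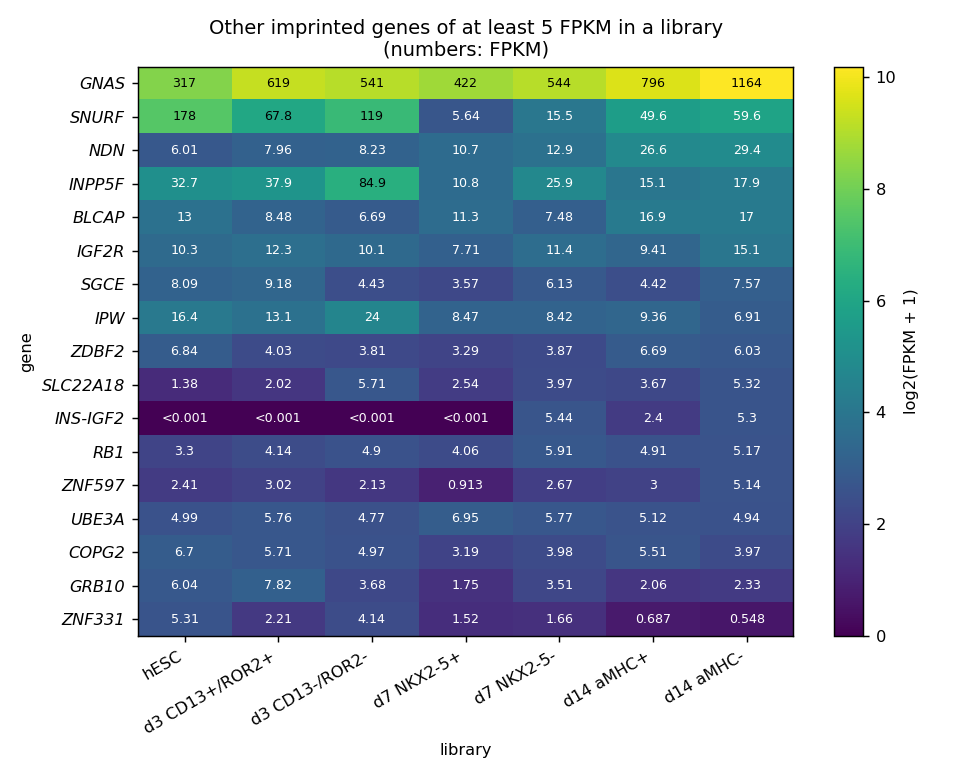
Rows are the 17 other imprinted genes that reach 5 FPKM in a library, columns the 7 libraries in order of day, colour is log2(FPKM + 1) and the numbers are FPKM. NDN is higher in both day 14 libraries (26.6 and 29.4 FPKM) than in the others, GNAS is the most abundant in each library, and INS-IGF2 is at 2.40 FPKM or more in day 7 NKX2-5- and both day 14 libraries.

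Of 24 genes beside the members in their clusters, again INS-IGF2 and SNURF alone were called in any comparison. Between 7 and 10 of the 24 reached 5 FPKM in a comparison, beside 0.998% to 13.5% of all genes called. KCNQ1OT1, the paternally read noncoding RNA near CDKN1C, stayed between 1.39 and 3.87 FPKM. The microRNA rows hosted by or beside members (MIR483 in IGF2, MIR675 in H19, MIR335 in MEST, MIR770 in MEG3 and 6 others) were at 0 in all 7 libraries. Libraries of this kind are not made to hold mature microRNAs, so these rows say nothing of their level.

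None of the 10 genes listed for upkeep of imprints was called in any comparison. Only 3 to 5 of them reached 5 FPKM in a comparison, beside 0.998% to 13.5% of all genes called, so 0 calls do not set them apart. TRIM28, the corepressor that ZFP57 recruits, was at 87.7 FPKM in day 3 CD13-/ROR2- and 14.6 in day 7 NKX2-5+, its highest and lowest libraries. DNMT1, the maintenance DNA methyltransferase, was likewise highest in day 3 CD13-/ROR2- (24.8 FPKM), and was lowest in day 14 aMHC+ (5.49). ZFP57 itself was at or below 0.488 FPKM in each library.

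Likeness of pattern was measured as Pearson r of log2(FPKM + 1) over the 7 libraries, among 7493 genes of at least 5 FPKM in at least 1 library. With so few points, drawn from 1 line over time, many genes reach a high r, and no p is given. The genes most like IGF2 were RAB11B (0.998), NT5C2 (0.994) and CTIF (0.992), all over a much narrower range, RAB11B between 20.4 and 60.3 FPKM. Those most like DLK1 were CRLS1 (0.993), NPY (0.992) and MBNL2 (0.990). For CDKN1C they were INHBA (0.999), THBS1 (0.997) and PRSS23 (0.995), for MEST FHL1 (0.995), ITGA3 (0.994) and HBEGF (0.989), and for PLAGL1 FAM113A (0.990), ANXA1 (0.989) and ACTG2 (0.988). PEG10 was most like HIAT1 (0.993), UGGT1 (0.992) and SMAD5 (0.991). SNRPN's own row was most like CAMK2D (0.989), MYOCD (0.987) and MYL4 (0.986), of which the last 2 are heart muscle genes. As the division of reads between the SNRPN and SNURF rows is not known, this likeness is that of the row only. For H19, MEG3 and PEG3, which never reach 2 FPKM, the measure was not read.

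Among the members, IGF2 and DLK1, which lie on different chromosomes, had r = 0.97, and CDKN1C and PLAGL1, also on different chromosomes, r = 0.98. PLAGL1 and MEST had r = 0.95. PEG10 had a negative r with IGF2 (-0.29), DLK1 (-0.43), MEST (-0.20), PLAGL1 (-0.24) and CDKN1C (-0.33). IGF2 and H19, which share a locus, had r = 0.69, resting on H19 values of 1.26 FPKM and less.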

How the data were processed

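The 7 RNA-seq libraries, 1 per group, are from 1 human embryonic stem cell line. Per the labels' protocols, they were prepared by TruSeq RNA v2, a kit without strand marking, and read from a single end. The authors deposited 1 table of FPKM values with gene symbols. Cufflinks and hg19 are named per the submitters' processing notes. Versions, aligner, annotation and the treatment of reads shared by several rows were not given in the sources used here. Of 23368 genes, 106 are blank in all libraries and were left out. The table gives no counts, so absolute depth is unknown. Relative depth was taken as the most frequent ratio of values below 0.3 FPKM.

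Groups came from the labels. In 8 comparisons, log2 ratios were computed with a pseudocount of 1 FPKM and called at 2 in size where the higher value was 5 FPKM or more. This scale understates the fold of genes with low values. No test was possible with 1 library per group. The call rule was tested on simulated data. The members and the 14 gene lists were chosen with earlier results of these data known. Named genes are the 10 members, genes of those lists that pass the size rule or are highest, further list genes chosen after their values were seen, and the 3 genes of highest likeness to each member. Promoter letters are RefSeq's, build GRCh38.p14, matched by symbol, which gave windows for 5 of 10 members. Coordinates of the files' own build are not used here. Alternatives were pseudocounts of 0.1 and 5, no minimum, median-ratio scaling (on the 7780 genes that exceed 1 FPKM everywhere), equal sums without 1691 small RNA and histone symbols and, added after seeing the data, sums of overlapping rows. Work was done in Python 3.11.15 with pandas 2.3.3.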

Additional observations from a re-analysis of the deposited data

How the results depend on the processing

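No paired analysis was possible because each group has 1 library. The 80 log2 ratios (10 members in 8 comparisons) were recomputed under 5 alternative settings and 1 more chosen after seeing the data. Without a minimum FPKM, all 80 ratios kept their side of the 4-fold rule. A pseudocount of 0.1 brought 3 past it, and a pseudocount of 5 took 8 out. Median-ratio scaling took out 4 and brought in 2, and equal sums without small RNA and histone genes took out 3 and brought in 2. Summing overlapping rows, on unscaled values, changed the sign of the SNRPN ratio in 7 of 8 comparisons. Of these, 1 had been called, day 3 CD13+/ROR2+ over hESC, which became -1.26. Counts of members called moved by over 1.5 times as follows. For day 3 CD13+/ROR2+ over CD13-/ROR2- the 1 became 2 with a pseudocount of 0.1 and 0 with 5. For day 3 CD13+/ROR2+ over hESC the 3 became 0 with a pseudocount of 5. For day 7 NKX2-5+ over day 3 CD13+/ROR2+ the 1 became 2 with a pseudocount of 0.1, 3 after median-ratio scaling and 3 at equal sums. For day 14 aMHC+ over day 7 NKX2-5+ the 3 became 1 under each of a pseudocount of 5, median-ratio scaling and equal sums, with IGF2 the call that was left. IGF2 and DLK1 were called between the day 7 fractions under each alternative run. Little can be said of H19, MEG3 and PEG3, which stay below 2 FPKM, since the reads behind such values are not known.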
